A study of Homo sapiens with 12 samples.

Results

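CTPS1 and RRM2, which encode a CTP synthase and the small subunit of ribonucleotide reductase, were followed in A431 and HSC-1 cells with and without everolimus. They were found by gene symbol in the probe annotation of the arrays, which gave each gene 1 probe set, and they are 2 of the 14884 genes with a named probe set. Both genes and the 4 comparisons below were chosen with their differences in these arrays already known, so their own values are a description and carry no test. A431 and HSC-1 are established human lines, both labelled as cutaneous squamous cell carcinoma. The groups were A431 with 100 nM everolimus for 72 h, A431 with DMSO for 72 h, HSC-1 with 100 nM everolimus for 72 h and HSC-1 on the solvent DMSO for 72 h, with 3 arrays each and 12 in all. Everolimus is a rapamycin analogue that inhibits mTOR complex 1, and DMSO is its solvent. Each group is 1 line, and the labels do not say whether its 3 arrays came from separate cultures, so p-values and SDs cover the spread between arrays alone, and that spread may be purely technical. The study's title concerns resistance to everolimus, and neither line is marked as resistant in the labels.

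Cells build the letters of RNA and DNA from amino acids, ribose phosphate and one-carbon units, or recover them from nucleosides. CTP synthase makes CTP from UTP with glutamine as the amino donor, and the product feeds RNA, DNA and the activation of phospholipid precursors. Ribonucleotide reductase turns ribonucleotides into the deoxyribonucleotides used for DNA. Its large subunit RRM1 carries the catalytic site, and the small subunit RRM2 carries the radical cofactor, is made mainly in S phase and is marked for destruction later in the cycle by cyclin F. mTOR complex 1 is known to promote both pyrimidine and purine synthesis.

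All 12 arrays held both transcripts above the array median. The values are log2 expression after RMA, the authors' array normalization, and each array's median over its 53617 probe sets lay between 4.34 and 4.39. CTPS1 stood between the 82.3 and 90.0 percentile of the probe sets of an array, and RRM2 between the 89.2 and 94.6 percentile. Pearson's r over all probe sets was 0.989 to 0.992 within a group and 0.955 to 0.962 between lines. Between the 2 treatments of a line it was 0.987 to 0.991, almost as high as within a group. Of 12 squamous keratinocyte markers, 8 had a named probe set, among them the basal keratins KRT5 and KRT14 and the desmosomal cadherin DSG3, and all 8 lay above the array median in every group. Among markers of other cell types, LUM in A431, CD14 in A431 with DMSO, and CD68 and SOX10 in every group lay above it on all 3 arrays of a group. Some markers changed with everolimus. In A431, 3 of the 8 squamous markers fell, among them DSG3 by 0.46 on the log2 scale (limma adjusted p = 2.98e-06), and in HSC-1, 2 fell and 2 rose. Over all genes tested, 4.33% fell in A431, and in HSC-1 11.3% fell and 7.34% rose. With no intensity trend, 1 squamous marker fell and 0 rose in HSC-1. Without HSC-1 DMSO replicate 2 or HSC-1 everolimus replicate 1, 2 fell and 1 rose. The macrophage marker CD68 fell in both lines (limma adjusted p = 0.015 in A431 and 0.0184 in HSC-1), calls lost under 4 and 6 of 22 alternatives. The part of these changes in the results below was not tested. These are bulk samples, so fewer cells making a transcript and less of it per cell cannot be told apart.

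CTPS1 was higher with everolimus in A431 and lower with everolimus in HSC-1. The probe set 16663155 read 7.22, 7.14 and 7.19 in A431 with everolimus, against 6.94, 6.95 and 6.63 in A431 with DMSO. All everolimus arrays lay above all DMSO arrays in A431, with a gap of 0.19, and DMSO replicate 3 lay well below the other DMSO arrays. In HSC-1 the same probe set read 7.25, 7.23 and 7.27 with everolimus, against 7.55, 7.51 and 7.35 with DMSO. Here all everolimus arrays lay below all DMSO arrays, with a gap of 0.08.

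The means were 7.18 ± 0.04 in A431 with everolimus and 6.84 ± 0.18 in A431 with DMSO (SD, n = 3 each), a log2 difference of 0.34 ± 0.08 (SE) or 1.26-fold higher. Without A431 DMSO replicate 3 the difference was 0.23. In HSC-1 the means were 7.25 ± 0.02 with everolimus and 7.47 ± 0.10 with DMSO (SD, n = 3 each), 1.17-fold lower, with a log2 difference of -0.22 ± 0.08 (SE). The everolimus difference in HSC-1 minus that in A431 was -0.56 ± 0.11 (SE). With DMSO, CTPS1 was 1.55-fold higher in HSC-1 than in A431, a log2 difference of 0.63 ± 0.08 (SE). With everolimus, HSC-1 minus A431 was 0.07. From high to low the order was HSC-1 on DMSO, HSC-1 on everolimus, A431 on everolimus and A431 on DMSO. The smallest step in that order was between the everolimus groups, HSC-1 and A431, at 0.07 beside an SE of 0.08. Their arrays did not overlap, with a gap of 0.01. The order is a description and not a test.

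RRM2 had the same pair of directions, with the larger difference in HSC-1. The probe set 16877019 read 8.39, 8.30 and 8.44 in A431 with everolimus, against 8.24, 8.23 and 8.22 in A431 with DMSO. The A431 groups did not overlap, and the gap between them was 0.06. In HSC-1 it read 7.47, 7.59 and 7.40 with everolimus, against 7.83, 7.83 and 7.81 with DMSO. The HSC-1 groups were further apart, with a gap of 0.22. The spread between arrays was larger with everolimus than with DMSO in both lines.

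The RRM2 means were 8.38 ± 0.07 in A431 with everolimus and 8.23 ± 0.0083 in A431 with DMSO (SD, n = 3 each), a log2 difference of 0.15 ± 0.05 (SE) or 1.11-fold higher. In HSC-1 they were 7.49 ± 0.10 with everolimus and 7.82 ± 0.0089 with DMSO (SD, n = 3 each), 1.26-fold lower, with a log2 difference of -0.34 ± 0.05 (SE). The everolimus difference in HSC-1 minus that in A431 was -0.48 ± 0.08 (SE). With DMSO, RRM2 was 1.33-fold lower in HSC-1 than in A431, a log2 difference of -0.41 ± 0.05 (SE), the opposite direction to CTPS1. With everolimus, HSC-1 minus A431 was -0.89. From high to low the order was A431 on everolimus, A431 on DMSO, HSC-1 on DMSO and HSC-1 on everolimus. The steps were 0.15, 0.41 and 0.34, each with an SE of 0.05, again as a description. Everolimus went with closer CTPS1 levels in the lines and with RRM2 levels that lay further apart.

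**Figure D1:**
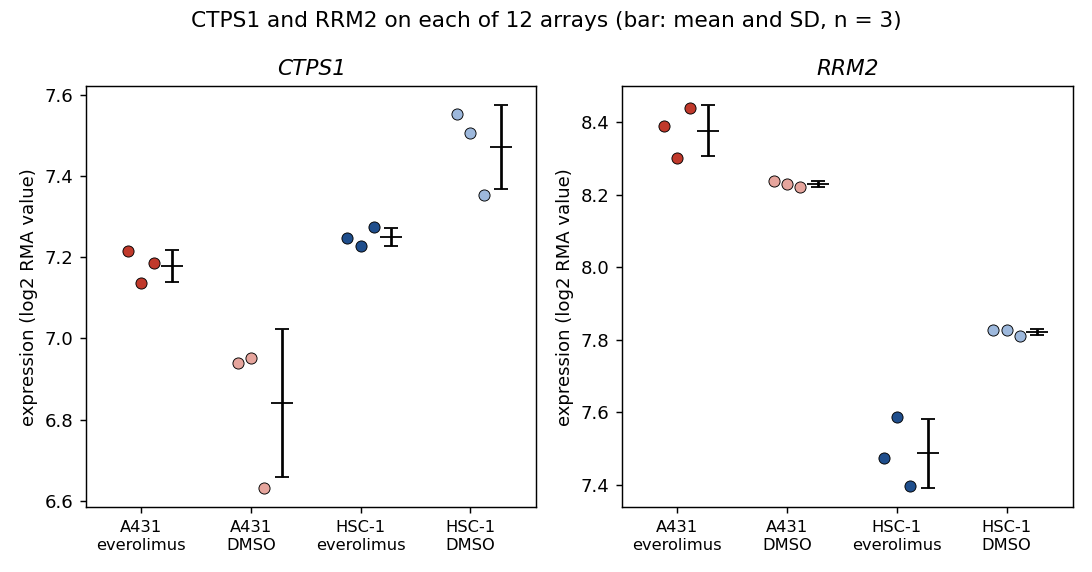
Expression of CTPS1 (left) and RRM2 (right) as log2 RMA values on each of the 12 arrays, with a point for each array and a bar for the mean and SD of 3 arrays. In A431 the everolimus points lie above the DMSO points, in HSC-1 they lie below them, and CTPS1 on A431 DMSO replicate 3 (6.63) is its lowest value.

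These sizes can be set among all 10613 genes tested, without a test of their own. In A431, 98.6% of genes had a lower difference than CTPS1 and 86.7% a lower one than RRM2. In HSC-1, 12.6% had a lower difference than CTPS1 and 4.71% a lower one than RRM2. In A431 the everolimus arrays lay wholly above the DMSO arrays for 11.0% of genes and wholly below them for 13.5%. In HSC-1 they lay wholly above for 13.7% and wholly below for 19.6%. For 2.08% of genes, 221 in number, both held at once, as they did for CTPS1 and RRM2. With DMSO, the HSC-1 arrays lay wholly above the A431 arrays for 32.3% of genes, as for CTPS1, and wholly below them for 32.9%, as for RRM2. Both genes were picked from these differences, so their places in these shares say nothing further.

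The starts of the genes are shown because the members moved in the same directions and because the RRM2 window carries a repeated element that the CTPS1 window lacks. The sequences are from RefSeq on build GRCh38.p14, plus strand, 5′ to 3′, and hold the 250 bases before the first listed start site of each gene. For CTPS1 this is chr1:40979446-40979695, and for RRM2 chr2:10122489-10122738. Capitals mark CCAAT, searched on both strands.
CTPS1: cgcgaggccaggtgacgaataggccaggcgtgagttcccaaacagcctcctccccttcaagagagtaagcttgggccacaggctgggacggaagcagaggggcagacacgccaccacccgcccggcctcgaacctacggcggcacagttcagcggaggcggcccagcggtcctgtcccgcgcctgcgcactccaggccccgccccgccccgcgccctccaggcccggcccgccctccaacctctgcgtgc
RRM2: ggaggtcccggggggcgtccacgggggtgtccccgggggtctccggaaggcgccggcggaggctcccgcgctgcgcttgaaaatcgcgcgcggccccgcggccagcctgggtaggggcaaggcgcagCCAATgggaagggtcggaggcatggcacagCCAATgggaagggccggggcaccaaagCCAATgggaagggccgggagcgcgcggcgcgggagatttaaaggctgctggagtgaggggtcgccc
The RRM2 window held CCAAT 3 times, at 123 to 119, 93 to 89 and 66 to 62 bases before the start, each inside the same 15 bases, agCCAATgggaaggg. These 15 bases were picked from this window as its longest stretch present 3 times, so RRM2 had to hold them. Of 27303 windows of this length it was the 1 window with 3 copies. Repeats of other stretches were not counted in the other windows, so this does not show that such a repeat is rare. CCAAT occurred at least 3 times in 3.09% of all windows and in 4.2% of those of tested genes. It did so in 8 of 22 windows of the tested G1/S and replication genes, in 5 of 24 of the G2/M and mitosis genes and in 1 of 62 of the other nucleotide genes. The CTPS1 window had no CCAAT and held GGGCGG 4 times, on the minus strand, with 1 overlapping pair. GGGCGG occurred at least 3 times in 14% of all windows, in 24.1% of those of tested genes and in 21 of 62 of the other nucleotide genes.

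A core of E2F sites, searched on both strands as TTCCCGC and also as TTGCCGC and further as TTCGCGC and lastly as TTGGCGC, was in neither window. It was in 11% of all windows and 16.7% of those of tested genes. Among the lists it was in 12 of 22 windows of the G1/S and replication genes and 7 of 24 of the G2/M and mitosis genes. CACGTG, the E-box bound by MYC, was also in neither, against 6.49% of all windows. RefSeq lists a further window for each gene, starting 8823 bases downstream for CTPS1 and 171 bases upstream for RRM2, so part of the printed RRM2 window lies within transcripts from its upstream start. The upstream RRM2 window held CCAAT 1 time and the E2F letters 1 time. These matches describe letters in the windows and not binding.

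The nearest relatives of both enzymes were measured on probe sets of their own. CTPS2, the other human CTP synthase, did not follow CTPS1. It read 7.19, 7.14 and 7.16 in A431 with everolimus, against 7.11, 7.27 and 7.09 in A431 with DMSO, a log2 difference of 0.01 ± 0.06 (SE, limma adjusted p = 0.965). In HSC-1 it read 7.11, 7.12 and 7.08 with everolimus, against 7.12, 7.19 and 7.13 with DMSO, a log2 difference of -0.04 ± 0.06 (SE, limma adjusted p = 0.702). The groups overlapped in both lines. With DMSO, HSC-1 minus A431 was -0.0098 ± 0.06 (SE, limma adjusted p = 0.906).

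RRM1, the large subunit, moved less than RRM2 and passed the test in HSC-1. It read 8.74, 8.78 and 8.80 in HSC-1 with everolimus, against 8.96, 8.88 and 8.97 in HSC-1 with DMSO, and fell by 0.16 on the log2 scale (limma adjusted p = 0.0238). In A431 it read 9.10, 9.07 and 9.20 with everolimus, against 9.04, 9.11 and 8.97 with DMSO, with overlapping groups and a log2 difference of 0.08 ± 0.05 (SE, limma adjusted p = 0.398). The difference between the lines was -0.24 ± 0.07 (SE, limma adjusted p = 0.0269). The HSC-1 call was lost without HSC-1 DMSO replicate 1 (0.0848) or 3 (0.0897), HSC-1 everolimus replicate 1 (0.0801) or 2 (0.0566) and without the intensity trend (0.0951), in a range of adjusted p from 0.0156 over all alternatives. The call of the difference ended when DMSO replicate 1 (0.0518) or 3 (0.076) or everolimus replicate 3 (0.0607) of A431 was left out, and without HSC-1 DMSO replicate 1 (0.0666) or 3 (0.0687), HSC-1 everolimus replicate 1 (0.0579) or 2 (0.0501) and without the trend (0.113), in a range from 0.0155.

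RRM2B, a small subunit induced by p53 that serves cells outside S phase, differed between the lines and not measurably with the drug. With DMSO it read 6.37, 6.12 and 6.23 in HSC-1, against 5.46, 5.44 and 5.24 in A431. It was 1.81-fold higher in HSC-1, a log2 difference of 0.86 ± 0.10 (SE, limma adjusted p = 7.92e-07), where RRM2 lay lower. With everolimus it read 6.31, 6.30 and 6.03 in HSC-1 and 5.26, 5.30 and 5.11 in A431, both overlapping their DMSO groups. The log2 differences with everolimus were -0.03 ± 0.10 in HSC-1 (SE, limma adjusted p = 0.906) and -0.16 ± 0.10 in A431 (SE, limma adjusted p = 0.459).

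**Figure D2:**
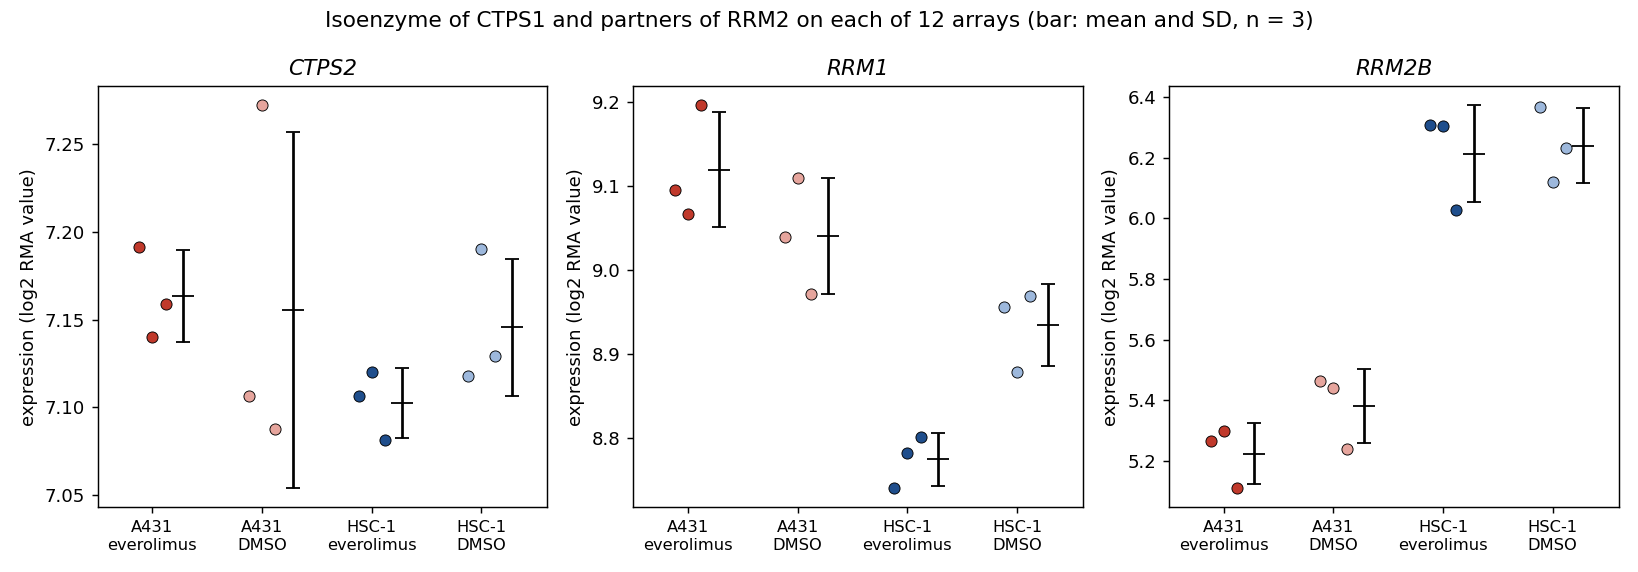
Expression of CTPS2, RRM1 and RRM2B as log2 RMA values on each of the 12 arrays, with a bar for the mean and SD of 3 arrays; each panel has its own scale. CTPS2 lies between 7.08 and 7.27 in all groups, RRM1 is lowest in HSC-1 with everolimus, and RRM2B is split by line.

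Around CTPS1 and RRM2, 105 further genes of nucleotide metabolism were listed in 8 groups by role, of which 71 had a named probe set and 68 were tested. The others were not analysed here. In A431, 3 of the 68 rose with everolimus, 5 fell and 60 did not pass, where 6.73% of all genes passed. The risers were 4.41% of the list, against 2.39% of all genes, and the fallers 7.35%, against 4.33%. The median log2 difference was 0.0087, against -0.0038 over all genes. In HSC-1, 2 rose, 17 fell and 49 did not pass. The fallers were 25% of the list, against 11.3% of all genes, and the risers 2.94%, against 7.34%. The median was -0.07, against -0.02 over all genes. The A431 total of 8 dropped to 3 without A431 DMSO replicate 1, to 4 without A431 DMSO replicate 2 and to 5 without A431 everolimus replicate 2. The HSC-1 total of 19 dropped to 12 without HSC-1 DMSO replicate 1.

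In the deoxynucleotide group, which holds the enzymes that work next to RRM2, 10 genes were tested, of which 3 fell and 1 rose in HSC-1, and 1 rose in A431. The HSC-1 shares were 30% and 10%, against 11.3% and 7.34% of all genes, and the A431 share was 10%, against 2.39%. DTYMK, the thymidylate kinase, averaged 6.08 ± 0.02 in HSC-1 with everolimus and 6.58 ± 0.10 in HSC-1 with DMSO (SD, n = 3 each) and fell 1.41-fold (limma adjusted p = 2.05e-05). DCTPP1, which clears unwanted dCTP, fell 1.40-fold in HSC-1 (limma adjusted p = 9.28e-07). In A431 their log2 differences were 0.18 ± 0.06 and 0.01 ± 0.05 (SE), and neither passed. The difference between the lines was -0.68 ± 0.09 for DTYMK and -0.50 ± 0.07 for DCTPP1 (SE, limma adjusted p = 8.4e-05 and 9.35e-05).

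TYMS, the thymidylate synthase, had a log2 difference of 0.15 ± 0.06 in A431 and -0.15 ± 0.06 in HSC-1 (SE, limma adjusted p = 0.128 and 0.0702), so neither passed alone, though 1 alternative in A431 and 3 in HSC-1 brought it past the threshold. The difference between the lines passed at -0.30 ± 0.08 (SE, limma adjusted p = 0.0191). That call was lost without A431 DMSO replicate 3 (0.0532), without HSC-1 DMSO replicate 2 (0.0595) and with no intensity trend (0.067), the lowest adjusted p being 0.00346. TXNRD1, the reductase that keeps thioredoxin able to recharge ribonucleotide reductase, rose in HSC-1 by a log2 difference of 0.28 ± 0.05 (SE, limma adjusted p = 0.00138). It also rose in A431, by 0.21 ± 0.05 (SE, limma adjusted p = 0.0266). The A431 call ended when DMSO replicate 1 (0.107) or 3 (0.0959) or everolimus replicate 2 (0.0704) or 3 (0.0999) of A431 was left out, without the trend (0.0695) and with median centring (0.0518), in a range from 0.014.

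The pyrimidine group had 3 tested genes, DHODH and UMPS upstream of CTPS1 and its isoenzyme CTPS2. CAD, CMPK1 and CMPK2 had no named probe set, so the pathway was covered only in part. Neither DHODH, which makes orotate, nor UMPS, which makes UMP from it, nor CTPS2 passed in either line (limma, unadjusted p under 0.05 in 0 of 3 in A431 and in 2 of 3 in HSC-1). In HSC-1 the log2 differences were -0.19 ± 0.08 for DHODH and -0.16 ± 0.06 for UMPS (SE, limma adjusted p = 0.11 and 0.0941). UMPS passed under 1 of 22 alternatives, in a range from 0.0415 to 0.287. In A431 they were 0.0089 ± 0.08 and 0.04 ± 0.06 (SE, limma adjusted p = 0.972 and 0.812). 

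A further group held genes of phospholipid and sialic acid activation, of which CDS1, CDS2 and CMAS use CTP itself, CHPT1, CEPT1, PGS1 and CRLS1 use CDP-linked substrates and CHKA is a choline kinase. Of these 8, 1 rose and 1 fell in HSC-1, with a median log2 difference of 0.02, and none passed in A431 (limma, 0 with an unadjusted p under 0.05). The HSC-1 calls were 12.5% each, against 7.34% and 11.3% of all genes. The rise was lost without HSC-1 DMSO replicate 1 or 2 and without HSC-1 everolimus replicate 2 or 3. The faller was CMAS, which couples sialic acid to CMP, at -0.28 ± 0.07 (SE, limma adjusted p = 0.00697).

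Of 10 purine synthesis genes, 1 rose in A431 and 1 fell in HSC-1, 10% each, against 2.39% and 11.3% of all genes. The riser was IMPDH2, which commits IMP to guanine nucleotides, at 0.20 ± 0.05 (SE, limma adjusted p = 0.0149). Its HSC-1 difference was 0.05 ± 0.05 (SE, limma adjusted p = 0.533), and the A431 call was lost without A431 DMSO replicate 2 (0.0918), without A431 everolimus replicate 2 (0.0556) and without the trend (0.0668), in a range from 0.00975. The faller was its isoenzyme IMPDH1, at -0.23 ± 0.07 in HSC-1 (SE, limma adjusted p = 0.0268). That call was lost without HSC-1 DMSO replicate 1 (0.0797), 2 (0.0703) or 3 (0.0553) and without HSC-1 everolimus replicate 1 (0.0957) or 2 (0.0698), in a range from 0.0142. Of 10 genes of ribose phosphate supply, 2 fell in A431 and 2 in HSC-1, 20% each, against 4.33% and 11.3% of all genes. The A431 count was 0 without A431 DMSO replicate 1 or 2, without A431 everolimus replicate 2 or with no intensity trend, and 1 with the replicate block. The HSC-1 count was 1 under 13 of 22 alternatives, the replicate block and the removal of any HSC-1 array but everolimus replicate 3 among them. PRPS1, which makes the activated ribose PRPP, fell by 0.33 ± 0.08 on the log2 scale in HSC-1 (SE, limma adjusted p = 0.00458).

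The one-carbon group had 8 tested genes, of which 3 fell in HSC-1 and 1 rose in A431. These were 37.5% and 12.5% of the group, against 11.3% and 2.39% of all genes. The weakest faller, PSPH, was at an adjusted p of 0.0395 in limma and was lost under 9 of 22 alternatives, up to 0.157 without HSC-1 DMSO replicate 2 and at 0.0643 with the replicate block. PSAT1, an aminotransferase of serine synthesis, averaged 9.27 ± 0.09 in HSC-1 with everolimus and 10.04 ± 0.0070 in HSC-1 with DMSO (SD, n = 3 each), a 1.71-fold fall (limma adjusted p = 1.08e-09). SHMT2, which moves a carbon from serine to folate in mitochondria, fell by 0.36 ± 0.08 on the log2 scale in HSC-1 (SE, limma adjusted p = 0.00402). In A431 their differences were 0.05 ± 0.04 and 0.10 ± 0.08 (SE, limma adjusted p = 0.573 and 0.579). MTHFD1L, a mitochondrial formate producer, had the CTPS1 pair of directions. It rose by 0.25 ± 0.06 in A431 (SE, limma adjusted p = 0.0153), against a difference of -0.14 ± 0.06 in HSC-1 (SE, limma adjusted p = 0.114), and the difference between the lines was -0.39 ± 0.09 (SE, limma adjusted p = 0.00545). The A431 call ended when DMSO replicate 1 (0.076) or 2 (0.053) or everolimus replicate 1 (0.0501) or 3 (0.0551) of A431 was left out, in a range from 0.00895.

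Among salvage and breakdown enzymes the calls in both lines were falls. CDA, which deaminates cytidine, averaged 7.91 ± 0.06 in HSC-1 with everolimus and 8.67 ± 0.01 in HSC-1 with DMSO, a 1.69-fold fall (limma adjusted p = 3.29e-09). In A431 it averaged 8.80 ± 0.06 with everolimus and 9.15 ± 0.04 with DMSO (SD, n = 3 each), a 1.27-fold fall (limma adjusted p = 6.64e-05). UCK2, a uridine and cytidine kinase whose products can be raised to UTP and CTP, fell in HSC-1 by 0.36 ± 0.07 on the log2 scale (SE, limma adjusted p = 0.00153). In all, 4 of 11 salvage genes fell in HSC-1 and 2 in A431, 36.4% and 18.2%, against 11.3% and 4.33% of all genes. The A431 count was 1 without DMSO replicate 1 or everolimus replicate 1 of A431 and with the mean of the probe sets of a gene. Of 8 breakdown genes, 3 fell in HSC-1 and 1 in A431, 37.5% and 12.5%, against 11.3% and 4.33% of all genes. The HSC-1 count was 1 without HSC-1 DMSO replicate 1 or HSC-1 everolimus replicate 3. The limma call of AMPD2 in HSC-1 was lost with the replicate block (adjusted p = 0.072) and with no level filter (0.0678). That call was also lost with the robust variance prior (0.0538), with median centring (0.0522), with the 6 arrays of the comparison alone (0.0844) and with any A431 array left out. Leaving out HSC-1 DMSO replicate 1 (0.17) or 3 (0.134) ended it too, as did leaving out HSC-1 everolimus replicate 1 (0.132), 2 (0.111) or 3 (0.0521). The A431 gene was ADA, which deaminates adenosine, at -0.45 ± 0.07 (SE, limma adjusted p = 0.00032). DPYD, the first enzyme of pyrimidine breakdown, fell by 0.45 ± 0.08 in HSC-1 (SE, limma adjusted p = 0.000371). SAMHD1, which hydrolyses deoxynucleotides, stood apart by line. With DMSO it averaged 7.07 ± 0.10 in HSC-1 and 8.41 ± 0.03 in A431 (SD, n = 3 each), a log2 difference of -1.34 ± 0.08 (SE, limma adjusted p = 1.81e-11), and with everolimus it passed in neither line, apart from 1 alternative in HSC-1.

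**Figure D3:**
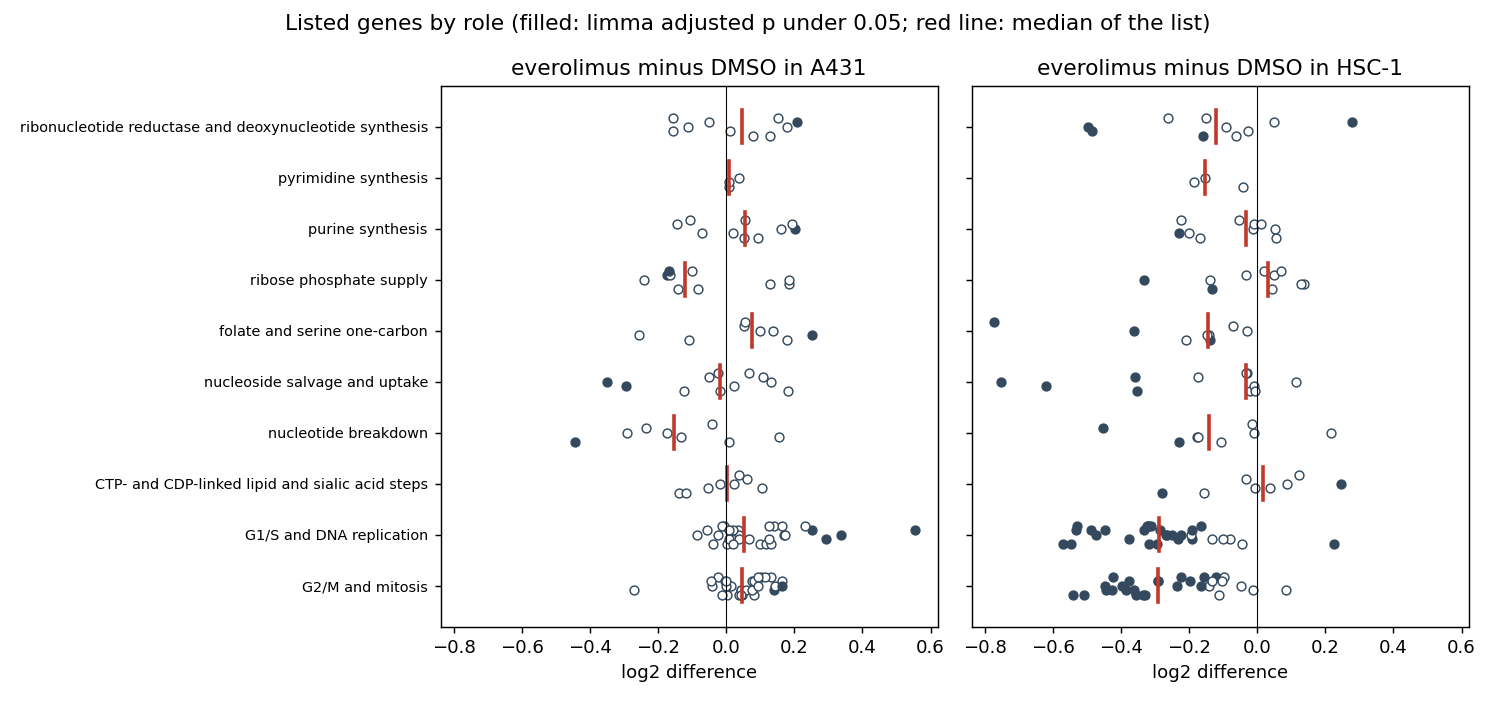
Log2 differences, everolimus minus DMSO, of the tested genes of 8 nucleotide groups and 2 cell cycle groups in A431 (left) and HSC-1 (right), with filled points for a limma adjusted p under 0.05 and a red line at each group's median. The cell cycle groups have medians of 0.05 in A431 and -0.29 in HSC-1, and the medians of the nucleotide groups in HSC-1 lie closer to 0. CTPS1 and RRM2 are not among the points.

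Between the lines, the everolimus difference of 10 of the 68 nucleotide genes was lower in HSC-1 than in A431, as it was for CTPS1 and RRM2, and that of 1 was higher. The 10 were 14.7% of the list, against 5.69% of all genes, and the 1 was 1.47%, against 4.84%. The 1 was TKT, the transketolase, at 0.24 ± 0.06 (SE, limma adjusted p = 0.0114), a call lost with no intensity trend (0.082, the lowest adjusted p being 0.007). The total of 11 dropped to 7 without A431 DMSO replicate 3. PSAT1 had the largest difference among them, -0.83 ± 0.06 (SE, limma adjusted p = 2.33e-07). With DMSO, 27 of the 68 were higher in HSC-1 than in A431 and 23 were lower, 39.7% and 33.8% of the list, against 29.2% and 30.2% of all genes.

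RRM2 is an S phase gene, so the cell cycle genes are given beside it. In HSC-1, 24 of 30 tested G1/S and replication genes fell with everolimus and 1 rose, and 21 of 29 G2/M and mitosis genes fell. Together 45 of 59 fell, or 76.3%, against 11.3% of all genes, and both groups had a median log2 difference of -0.29, close to the RRM2 value of -0.34. In A431, 4 and 2 rose, 10.2% of the 59 against 2.39% of all genes, with medians of 0.05 in both groups, and none fell (limma, 0 with an unadjusted p under 0.05). Removing DMSO replicate 1, DMSO replicate 2, everolimus replicate 1 or everolimus replicate 3 of A431 cut the A431 total of 6 to 3, as did median centring. GINS2, a part of the replication helicase, had the RRM2 pair of directions with both passing. It rose by 0.34 ± 0.06 in A431 and fell by 0.47 ± 0.06 in HSC-1 (SE, limma adjusted p = 0.00155 and 1.94e-05).

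CLSPN, a checkpoint adaptor at replication forks, rose by 0.55 ± 0.09 in A431 and fell by 0.49 ± 0.09 in HSC-1 (SE, limma adjusted p = 0.000596 and 0.000691). Averaging its 2 probe sets ended the A431 call (0.249, in a range from 0.000154); the other probe set had a mean of 2.13. MKI67, the proliferation marker, rose by 0.16 ± 0.04 in A431 and fell by 0.24 ± 0.04 in HSC-1 (SE, limma adjusted p = 0.00968 and 0.000171). Its A431 call was lost without A431 DMSO replicate 2 (0.0547) and without the trend (0.106), in a range from 0.0044. In HSC-1 the replication factors MCM10 and CDC6 fell by 0.57 ± 0.07 and 0.55 ± 0.06 (SE), and the mitotic genes CDC20 and PLK1 had log2 differences of -0.54 ± 0.04 and -0.51 ± 0.04 (SE), all passing. The part of the cell cycle in the RRM2 and CTPS1 values was not tested. Across all genes, 32, or 0.302%, rose in A431 and fell in HSC-1 with both calls passing.

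**Figure D4:**
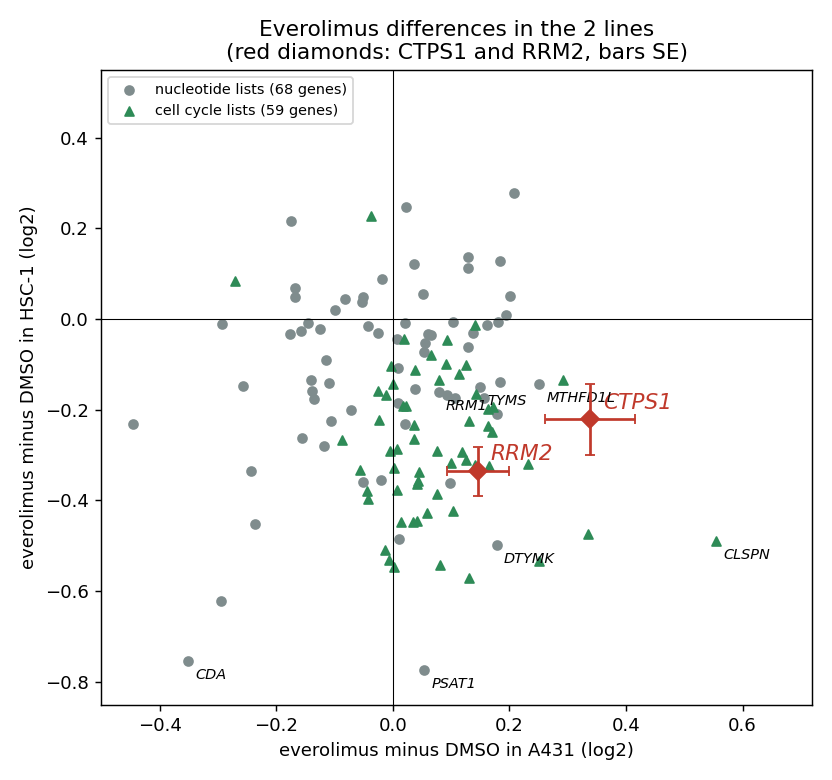
Log2 differences, everolimus minus DMSO, in A431 (horizontal) and HSC-1 (vertical) for 68 nucleotide genes (grey circles), 59 cell cycle genes (green triangles) and CTPS1 and RRM2 (red diamonds with SE bars). RRM2 (0.15, -0.34) lies among the cell cycle genes, CTPS1 (0.34, -0.22) lies to the right of most points, and CDA falls in both lines.

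Of 10 tested regulators of nucleotide synthesis, 3 rose and 0 fell in A431 (limma, 0 lower with an unadjusted p under 0.05), 30% against 2.39% of all genes. In HSC-1, 1 rose and 2 fell, 10% and 20%, against 7.34% and 11.3% of all genes, and 1 fell without HSC-1 DMSO replicate 3 or HSC-1 everolimus replicate 2. MYC, a transcription factor that binds many nucleotide synthesis genes, rose in A431 by 0.23 ± 0.05 (SE, limma adjusted p = 0.00639). In HSC-1 its difference was positive too, 0.13 ± 0.05 (SE, limma adjusted p = 0.0725, and past the threshold under 2 of 22 alternatives, in a range from 0.0183 to 0.299), while CTPS1 and RRM2 lay lower there. With DMSO, MYC was 0.84 ± 0.05 higher in HSC-1 than in A431 on the log2 scale (SE, limma adjusted p = 1.71e-11). E2F1, an activator of S phase genes, fell in HSC-1 by 0.32 ± 0.08 (SE, limma adjusted p = 0.0116), a call lost without HSC-1 DMSO replicate 3 (0.0757) and without HSC-1 everolimus replicate 2 (0.0723), in a range from 0.00344. CCNF, cyclin F, which targets RRM2 protein for destruction, fell in HSC-1 by 0.42 ± 0.07 (SE, limma adjusted p = 0.00018). In A431 the differences were 0.10 ± 0.08 for E2F1 and 0.10 ± 0.07 for CCNF (SE, limma adjusted p = 0.582 and 0.441). MTOR, the target kinase, rose in A431 by 0.25 ± 0.05 (SE, limma adjusted p = 0.00245). The other A431 riser, RB1, had a log2 difference of 0.168 there. Its limma call was lost without A431 DMSO replicate 1 (adjusted p = 0.07) or 3 (0.121) or any A431 everolimus array. The call was lost too with the 6 arrays of the comparison alone (0.0535), median centring (0.0691) and no intensity trend (0.139). TSC2, a brake on mTOR complex 1, rose in HSC-1 by 0.28 ± 0.06 (SE, limma adjusted p = 0.00414).

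The genes most like each member over the 12 arrays were found with 2 measures, as a description. The first was Pearson's r after the mean of each line was taken away, so that it reads the treatment and the spread between arrays and not the line. For RRM2 the highest were TRIP13 (0.97), MCM8 (0.97), POGLUT3 (0.97), CPA4 (0.97) and NEIL3 (0.96). For CTPS1 they were POU5F1 (0.93), SUPT6H (0.93), SH3KBP1 (0.91), RRP15 (0.91) and LOXL1 (0.91). RRP15 had log2 differences of 0.27 in A431 and -0.21 in HSC-1, and TRIP13 had 0.19 and -0.49. Between CTPS1 and RRM2 themselves this r was 0.68, and RRM2 ranked 348 among all tested genes by its r with CTPS1. In the other direction, CTPS1 ranked 868 by its r with RRM2. The arrays of a group share their treatment, so these values do not rest on 12 separate conditions.

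The other measure was the root mean square distance between profiles centred on their own means, which includes the line difference. The nearest to RRM2 were MASTL (0.06), CENPI (0.07), STIL (0.07), CCNA2 (0.07) and NOL9 (0.07), on the log2 scale. CCNA2, the S and G2 phase cyclin, had a log2 difference of 0.04 in A431 and -0.45 in HSC-1, and -0.43 between HSC-1 and A431 with DMSO. The nearest to CTPS1 were CSF1 (0.09), RUNX1 (0.09), its intronic transcript RUNX1-IT1 (0.10), ZNF319 (0.10) and TTL (0.10). The distance between CTPS1 and RRM2 was 0.52. Counted from the nearest gene, RRM2 ranked 8894 by distance from CTPS1, and CTPS1 ranked 7931 from RRM2, among all tested genes.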

How the data were processed

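RNA from 12 samples was read on Affymetrix arrays, 3 in each of 4 groups. The authors deposited log2 values, 1 for each probe set and array. Per the submitters' processing notes these came from RMA and Affymetrix Expression Console, with versions not given in the sources used here. The method aligns the arrays, so a shift in total RNA per cell may not show, and the array medians still ran from 4.34 to 4.39. The number of arrays limits the precision. Of 53617 probe sets, 16098 had 1 gene symbol, 0 had several and 37519 had none; all 16098 matched GRCh38.p14 by Entrez identifier.

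For each of 14884 genes the probe set with the highest mean was used. The 10613 genes above the array median on at least 3 arrays were fitted in limma 3.58.1 (R 4.3.3) by lmFit and eBayes, with the prior variance following intensity and Benjamini-Hochberg adjustment over all of them and a threshold of 0.05. SE is the moderated standard error. The contrasts were everolimus minus DMSO in each line, their difference, and HSC-1 minus A431 with DMSO. Promoter windows of chromosome 8 were left out. The fit was tested on simulated data.

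The members and lists were chosen with earlier results of these data known. Named genes are CTPS1, RRM2, a fixed panel of 20 of which 15 were tested, up to 3 members per list and comparison with the largest passing difference, and the 5 most like each member by each measure; not all are printed. The replicate numbers were checked as pairs: deviations of same-numbered arrays correlated at -0.15 to 0.07. Alternatives were the replicate block, level filters, variance priors, array weights, normalization, 6 arrays alone, the mean of probe sets, stricter thresholds and leaving out each array.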

Additional observations from a re-analysis of the deposited data

Results flagged for a closer look

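For CTPS1 and RRM2 every everolimus array lay above every DMSO array in A431 and below every DMSO array in HSC-1. The everolimus difference in HSC-1 minus that in A431 was -0.56 for CTPS1 and -0.482 for RRM2 on the log2 scale. This difference was not tested for either gene, since both were chosen with it known.

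For 22 other named genes the test of the difference between the lines passed. Some of these genes were named because they passed this test, so the count of 22 does not bear on CTPS1 and RRM2. Over all genes, 10.5% passed it. Among the deoxynucleotide enzymes it was -0.677 for DTYMK, -0.496 for DCTPP1, -0.301 for TYMS and -0.239 for RRM1 (limma adjusted p = 8.4e-05, 9.35e-05, 0.0191 and 0.0269). Among one-carbon genes it was -0.827 for PSAT1, -0.461 for SHMT2 and -0.394 for MTHFD1L (limma adjusted p = 2.33e-07, 0.0144 and 0.00545). CDA had -0.404 and PNP -0.326, both falling in each line and more in HSC-1 (limma adjusted p = 0.000469 and 0.0394). The PNP call was lost under 13 of 21 alternatives, in a range of adjusted p from 0.0264 to 0.646 with the mean of its 2 probe sets. TKT ran the other way, at 0.237 (limma adjusted p = 0.0114), as did 3 genes of squamous cell adhesion, DSG3 at 0.57, DSC3 at 0.361 and PKP1 at 0.234 (limma adjusted p = 1.37e-05, 0.00821 and 0.0216). The DSC3 call was lost with no intensity trend (0.0624), and the PKP1 call with no trend (0.0839) and without A431 DMSO replicate 1 (0.0513) or 3 (0.0524) or HSC-1 DMSO replicate 2 (0.0666).

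Among cell cycle genes and regulators, the difference was -1.04 for CLSPN, -0.809 for GINS2, -0.783 for E2F7, -0.623 for CDC20, -0.527 for CCNF, -0.496 for PLK1, -0.417 for E2F1, -0.399 for MKI67 and -0.299 for RB1, with limma adjusted p from 2.01e-06 for CDC20 to 0.0284 for E2F1. Averaging its 2 probe sets ended the CLSPN call (0.0637, in a range from 8.44e-06). The E2F1 call ended when DMSO replicate 2 (0.0581) or 3 (0.0556) or everolimus replicate 2 (0.078) of A431 was left out, and without HSC-1 DMSO replicate 1 (0.0548) or 3 (0.0821), HSC-1 everolimus replicate 2 (0.0825) and without the trend (0.0641), in a range from 0.012.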

How the results depend on the processing

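The 8 differences of CTPS1 and RRM2 kept their sign under all 174 alternatives run, and in 172 moved by less than the pooled SD of the groups compared. The other 2 were RRM2 between the lines with DMSO, at -0.36 after quantile normalization again and -0.42 with median centring. Many of the 174 could not move a difference, so these totals do not measure stability. The replicate block, level filters, variance priors, mean of probe sets and removal of an array outside the comparison leave it unchanged. For CTPS1 in A431 the pooled SD also includes the low A431 DMSO replicate 3. In A431, CTPS1 ranged from 0.23 to 0.39 and RRM2 from 0.11 to 0.18. Of 114 passing results of other named genes, 80 passed under every alternative and 34 were lost under at least 1; 0 changed sign. The check of the replicate numbers showed no pairing: 1 of 6 A431 arrays and 0 of 6 HSC-1 arrays correlated best with its own number. It used deviations from means of 3 arrays, so it cannot exclude pairing. With the replicate block, nucleotide calls numbered 7 in A431, 16 in HSC-1, 9 in the difference and 50 between the lines with DMSO, cell cycle calls 5, 45, 40 and 33, and all calls 621, 1845, 1005 and 6212.

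Nucleotide calls in A431 (8 of 68) numbered 4 without the intensity trend, 2 at an adjusted p of 0.01 and 3 to 10 with an array left out. In HSC-1 (19) they were 11 at 0.01, 3 at 1.5-fold and 12 to 19 with an array left out, and in the difference (11) 7 without the trend, 5 at 0.01, 2 at 1.5-fold and 7 to 13. Cell cycle calls in A431 (6 of 59) numbered 2 without the trend, 3 with median centring, 3 at 0.01 and 3 to 6 with an array left out, and in the difference (43) 26, 25 at 0.01 and 5 at 1.5-fold. At 1.5-fold, limma gave 0 nucleotide and 0 cell cycle calls in A431 and 0 cell cycle calls in HSC-1, and 0 of each with an unadjusted p under 0.05. Between the lines with DMSO, 1.5-fold left 14 nucleotide calls, 9 cell cycle calls and 2817 of all 6303. All calls in A431 (714) numbered 438 without the trend, 347 at 0.01, 66 at 1.5-fold and 452 to 839 with an array left out (452 without A431 DMSO replicate 1, 453 without replicate 2). In HSC-1 (1977) they were 1115 and 139, and in the difference (1118) 541 and 228, at 0.01 and 1.5-fold. The causes were not tested, apart from the stricter thresholds.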
